A study of Mus musculus with 6 samples.

Results

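Stratified squamous epithelium is the layered lining of skin, mouth and oesophagus, and 40 of its genes were followed here among the 18238 genes of the count table. The 40 genes encode keratins, desmosome proteins, proteins of the cornified envelope and other products of keratinocytes. They were chosen by name, with these libraries already measured, because many of them stood alone in artemisinin replicate 2, so the contrast of that library with the rest is given as a description without a test. The RNA-seq series holds 3 libraries of mice with lung cancer given artemisinin (artemisinin replicates 1 to 3) and 3 of the lung cancer model alone (model replicates 1 to 3). The drug is an antimalarial endoperoxide from Artemisia annua. All 6 libraries are labelled lung cancer. The labels used here do not say how it was induced, which tissue piece was taken, or the strain, age, dose and duration. The libraries held between 25566173 and 34745497 counts.

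Keratin filaments are built from pairs, a basic type II partner with an acidic type I partner, and each layer and tissue is known for its own pair. Krt5 with Krt14 marks the dividing basal layer of stratified epithelia, where Krt15 is also made. Above it the epidermis switches to Krt1 with Krt10, and the wet linings of mouth, oesophagus and forestomach switch to Krt4 with Krt13. Lung alveoli and airways mostly carry the simple keratins Krt7, Krt8, Krt18 and Krt19, with Krt5 in the basal cells of the large airways. Stratified layers are held together by desmosomes and end, where they cornify, in an envelope of small proline-rich proteins, loricrin and plakins that transglutaminases cross-link. In the mouse the oesophagus and forestomach cornify, as the epidermis does, and the outer muscle coat of the oesophagus is largely striated.

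Promoters are shown, with RefSeq sequence of GRCm38.p6, for members with different patterns. Krt13, Krt5 and Krtdap stood high in artemisinin replicate 2, Sbsn and Dmkn are the neighbours of Krtdap, and Serpinb5 and Dmkn fell in the other artemisinin libraries. Each run is the 200 bases before the transcription start, 5′ to 3′ on the gene's strand. Capitals mark TGANTCA, an AP-1 type pattern with the middle base left free, which as a pattern reads the same on both strands. The stretch is TGAGTCA in Krtdap and Dmkn and TGAATCA in Krt13, Sbsn and Serpinb5. The strict AP-1 core has C or G in the middle, so a match is not always that core. Krt13 lies at chr11:100121567-100121766 (minus strand), Krt5 at chr15:101712906-101713105 (minus), Krtdap at chr7:30787705-30787904 (plus), Sbsn at chr7:30751271-30751470 (plus), Dmkn at chr7:30763556-30763755 (plus) and Serpinb5 at chr1:106860975-106861174 (plus).
Krt13: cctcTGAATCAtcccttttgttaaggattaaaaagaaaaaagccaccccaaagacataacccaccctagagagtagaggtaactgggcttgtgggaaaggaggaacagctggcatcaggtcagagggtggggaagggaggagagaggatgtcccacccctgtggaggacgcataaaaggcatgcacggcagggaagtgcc
Krt5: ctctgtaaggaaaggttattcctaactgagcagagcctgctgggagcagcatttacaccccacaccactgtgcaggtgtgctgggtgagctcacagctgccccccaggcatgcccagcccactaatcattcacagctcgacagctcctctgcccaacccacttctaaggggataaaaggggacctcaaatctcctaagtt
Krtdap: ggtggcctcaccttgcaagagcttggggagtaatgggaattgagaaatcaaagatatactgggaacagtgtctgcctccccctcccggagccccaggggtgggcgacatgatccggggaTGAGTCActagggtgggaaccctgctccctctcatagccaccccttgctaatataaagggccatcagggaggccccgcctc
Sbsn: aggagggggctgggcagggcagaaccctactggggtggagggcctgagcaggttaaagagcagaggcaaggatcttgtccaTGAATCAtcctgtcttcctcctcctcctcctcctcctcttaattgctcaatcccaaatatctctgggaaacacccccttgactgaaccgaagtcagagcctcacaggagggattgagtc
Dmkn: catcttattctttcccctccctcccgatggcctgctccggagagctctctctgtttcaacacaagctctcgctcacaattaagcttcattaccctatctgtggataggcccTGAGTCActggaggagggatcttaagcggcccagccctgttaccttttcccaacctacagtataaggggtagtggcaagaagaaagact
Serpinb5: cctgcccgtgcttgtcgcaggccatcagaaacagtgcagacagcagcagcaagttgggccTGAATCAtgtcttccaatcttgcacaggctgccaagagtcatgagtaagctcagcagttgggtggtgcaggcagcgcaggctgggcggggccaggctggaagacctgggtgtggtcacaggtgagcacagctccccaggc
In these windows the match began at −196 relative to the start in Krt13, −81 in Krtdap, −119 in Sbsn, −89 in Dmkn and −140 in Serpinb5, and Krt5 had none. A further Sbsn match began at −6 and ran past the start, so it is not in capitals. The RefSeq table has 2 start sites for Krt13 and 3 for Dmkn, and each of those 5 windows held a match.

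Promoter windows of 250 bases before to 50 after the start were at hand for 20 of the 40 members. TGANTCA occurred in 7 of the 20 (Dmkn, Krt13, Krtdap, Sbsn, Serpinb5, Sprr1a and Sprr1b), which is 35%, and in 8.97% of 27025 genes with such a window. TATAAA, the TATA box, searched on both strands, occurred in 9 of the 20, or 45%, against 15.7% of all genes. GCCNNNGGC, an AP-2 type core, occurred in 1 of the 20 (Cnfn), or 5%, against 18.5% of all genes. A gene with several start sites was counted once if any window held the match.

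Many members come from gene families that lie in clusters, and the choice by name took several genes of a family. The runs below therefore follow in part from the choice, and no share over all genes was computed for them. Of the 40, 23 fell into 6 runs in which neighbouring members were less than 500 kb apart. The type II keratins Krt6a, Krt5, Krt1, Krt4 and Krt78 spanned 306.7 kb of chromosome 15 (101689928 to 101996624, GRCm38), and the type I keratins Krt13, Krt15 and Krt14 spanned 90.2 kb of chromosome 11 (100117327 to 100207510). Sbsn, Dmkn and Krtdap, which encode secreted keratinocyte proteins, spanned 58.4 kb of chromosome 7. Sprr1b, Sprr3 and Sprr1a on chromosome 3, the serpins Serpinb5, Serpinb3a and Serpinb3c on chromosome 1 and 6 desmosomal cadherin genes on chromosome 18 formed the other runs.

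Artemisinin replicate 2 stood apart from the other 5 libraries in most of these genes. Members supplied 197824 counts there, 0.616% of the library (95% exact binomial interval 0.613% to 0.619%, counting error only), against 0.023% to 0.0496% in the other 5. Of the 40 members, 26 reached at least 10-fold the highest of the other 5 libraries in normalised CPM, with libraries under 3 counts set to that floor. Over all genes with at least 10 counts this held for 237 of 16853, or 1.41%, and since these values chose the members, nothing is read from the difference. The members closest to 10-fold were Trp63 and Calml3 above it, at 13.8-fold and 14.8-fold, and Sbsn and Krt6a below it, at 8.50-fold and at least 7.86-fold. In 38 of the 40 the highest normalised CPM was in artemisinin replicate 2. The exceptions were Dmkn, at 226 normalised CPM there against 245.3 in model replicate 1, and Dsg2. In bulk RNA, more squamous cells and more RNA per squamous cell cannot be told apart.

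**Figure D1:**
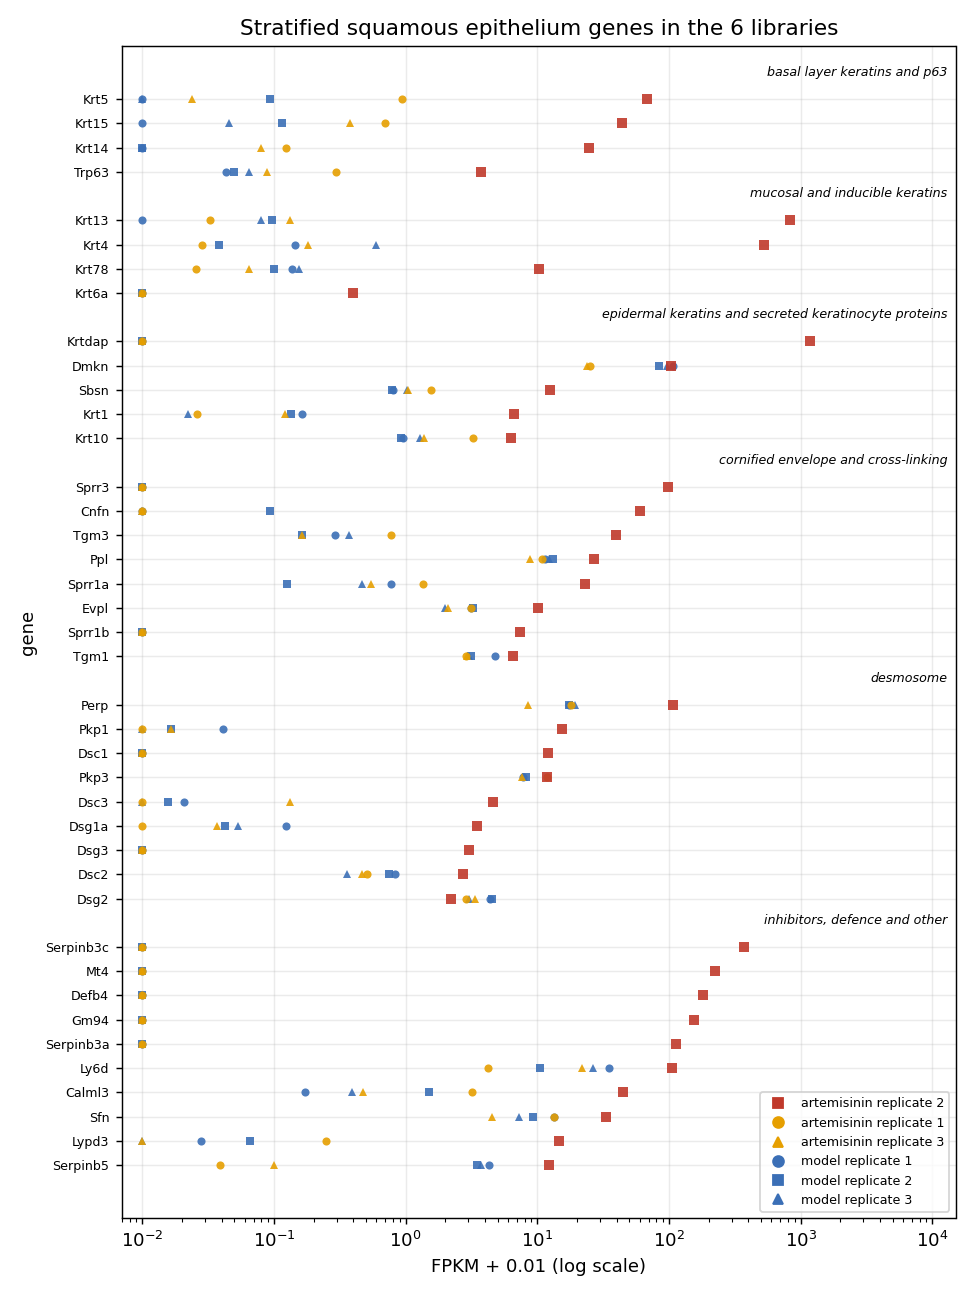
Deposited FPKM of the 40 genes in each library, on a log axis after adding 0.01, grouped by role, where each point is 1 library. Artemisinin replicate 2 (red squares) lies to the right of the other 5 libraries for most genes, and Krtdap, at 1169 FPKM, is its highest member, while the members at the left edge have 0 counts in the other libraries.

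The mucosal keratins led the squamous keratins of artemisinin replicate 2. Krt13 was at 0.0225, 829 and 0.122 FPKM in artemisinin replicates 1, 2 and 3, against 0, 0.0872 and 0.0695 FPKM in model replicates 1, 2 and 3. Krt4, its type II partner, was at 0.0183, 531 and 0.17 FPKM in the artemisinin libraries, against 0.135, 0.0284 and 0.581 FPKM in the model libraries. Krt13 and Krt4 ranked 42 and 88 among all genes of artemisinin replicate 2 by FPKM, while the other 5 libraries held at most 41 counts of either. In normalised CPM, Krt13 exceeded the highest other library 7191-fold (counting interval 3490 to 17886) and Krt4 exceeded it 876-fold (646 to 1221).

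The basal keratins followed at lower levels. Krt5 was at 0.922, 68.1 and 0.0137 FPKM in artemisinin replicates 1, 2 and 3, against 0, 0.0825 and 0 FPKM in the model libraries. Krt15 was at 0.682, 44.1 and 0.369 FPKM with artemisinin, against 0, 0.106 and 0.0352 FPKM in the model. Krt14 was at 0.114, 24.9 and 0.0702 FPKM with artemisinin and had 0 counts in all 3 model libraries. For each of these the next highest library after artemisinin replicate 2 was artemisinin replicate 1. Trp63, which encodes p63, the transcription factor that keeps the basal layer, was at 0.287, 3.74 and 0.0788 FPKM with artemisinin, against 0.0329, 0.0396 and 0.0542 FPKM in the model.

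The epidermal pair was present at a low level. Krt1 was at 0.016, 6.64 and 0.111 FPKM in artemisinin replicates 1, 2 and 3, against 0.153, 0.124 and 0.0124 FPKM in the model. Krt10 was at 3.22, 6.32 and 1.37 FPKM with artemisinin, against 0.939, 0.918 and 1.27 FPKM in the model, so it was measured in every library and artemisinin replicate 2 exceeded artemisinin replicate 1 only 2.08-fold. Krt78, a keratin of differentiated layers, reached 10.2 FPKM in artemisinin replicate 2 and at most 0.145 FPKM elsewhere. Krt6a, the keratin of activated and wounded epithelium, had 28 counts there (exact Poisson interval 18.6 to 40.5) and 0 in the others.

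By length-scaled level, Krt4 and Krt13 made up 89.4% of the summed FPKM of the 9 keratin members in artemisinin replicate 2. The basal keratins Krt5, Krt14 and Krt15 made up 9.01% and Krt1 with Krt10 made up 0.852%. Krt4 was 80.0 times Krt1, and Krt13 was 131 times Krt10. Within pairs the type II to type I ratio of FPKM was 0.641 for Krt4 to Krt13, 2.74 for Krt5 to Krt14 and 1.05 for Krt1 to Krt10. Krt14 was at 0.564 of the Krt15 level. Over all 9 members the type II sum was 0.682 of the type I sum. The 9 keratins summed to 1521 FPKM in artemisinin replicate 2 and to between 1.35 and 5.01 FPKM in the other 5, while the 4 simple keratins summed to 494.1 FPKM there and to between 265.9 and 579.9 FPKM in the others.

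Keratins known for other squamous tissues were near 0 in artemisinin replicate 2. The table held 42 keratin genes with a number in their symbol, and 11 of them had 0 counts in that library. Those 11 included Krt12, the keratin of the cornea, Krt77, a keratin of sweat ducts and epidermis, and the hair keratins Krt25, Krt33a, Krt33b, Krt34, Krt73, Krt81 and Krt85. Each count of 0 allows up to 3 counts. Krt36, known from nail and tongue papillae, had 1 count, Krt76, of the palate, had 8, and Krt17, of hair follicles and activated epithelium, had 13. Krt32, a keratin of the hair cuticle, had 94 counts in artemisinin replicate 2 and 0 in the other 5. Among the keratins alone, Krt4 and Krt13 stood above the basal keratins, with little Krt1, Krt10 or hair keratin. That order is the one known for internal squamous linings rather than for skin. These keratins do not tell oesophagus, forestomach and mouth lining apart. The marker lists described below leaned the other way. Of 15 other genes of cornified epidermis, 10 stood at least 10-fold above the other libraries, against 3 of 11 other markers of the mucosa. Which squamous tissue the transcripts came from was not tested.

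The secreted keratinocyte proteins divided into genes found only in artemisinin replicate 2 and genes that the other libraries also held. Krtdap, a secreted regulator of keratinocyte differentiation, was its 20th gene by FPKM at 1169 FPKM, with 17344 counts, and had 0 counts in the other 5 libraries. It was at least 4870-fold higher there than the floor of 3 counts per library. Its neighbour Sbsn (suprabasin) was at 1.56, 12.5 and 1.03 FPKM in artemisinin replicates 1, 2 and 3, against 0.786, 0.783 and 1.01 FPKM in the model. Dmkn (dermokine), which lies between them, was at 25.1, 104 and 23.8 FPKM with artemisinin, against 107, 83.7 and 96.2 FPKM in the model. These 3 adjacent genes thus had 3 different patterns, and the Dmkn value of artemisinin replicate 2 fell within the model range.

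Among the 8 genes of the cornified envelope and its cross-linking, 5 stood at least 10-fold above the other libraries. Sprr3, the small proline-rich protein known from oesophagus and mouth, was at 98.0 FPKM in artemisinin replicate 2 with 0 counts elsewhere, at least 1080-fold higher than that floor. Tgm3, a cross-linking transglutaminase, was at 0.769, 39.3 and 0.154 FPKM with artemisinin, against 0.283, 0.155 and 0.363 FPKM in the model. Cnfn (cornifelin) had 1388 counts in artemisinin replicate 2 and 2 counts elsewhere, both in model replicate 2. Sprr1a and Sprr1b reached 23.2 and 7.37 FPKM, and Sprr1b had 0 counts in the other 5. The plakin genes Ppl and Evpl and the transglutaminase gene Tgm1 were measured in every library and were 2.02-fold, 3.02-fold and 1.31-fold above the highest other one.

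Desmosome genes separated in the same way. Dsc1 and Dsg3, cadherins of stratified layers, reached 12.02 and 3.03 FPKM in artemisinin replicate 2 and had 0 counts in the other 5. Pkp1, the plakophilin of stratified epithelia, was at 0, 15.4 and 0.00646 FPKM in artemisinin replicates 1, 2 and 3, against 0.0308, 0.0065 and 0 FPKM in the model. Dsc3 and Dsg1a were 39.7-fold and 29.1-fold above the highest other library. Dsg2, the desmoglein also found in simple epithelia, was lowest in artemisinin replicate 2, at 2.85, 2.21 and 3.35 FPKM with artemisinin against 4.33, 4.55 and 3.02 FPKM in the model. Pkp3 had 11.8 FPKM in both artemisinin replicates 1 and 2, and between 7.59 and 8.14 FPKM in the others. Dsc2 was 3.13-fold above the highest other library, and Perp, a tetraspan protein of desmosomes and a p63 target, was 5.37-fold above it.

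Of the 10 products with roles in protease inhibition, defence and other functions, 7 stood at least 10-fold above the other libraries. Serpinb3c and Serpinb3a, inhibitors of cysteine and serine proteases, were at 372 and 112 FPKM in artemisinin replicate 2. Mt4, the metallothionein of stratified epithelia, was at 223 FPKM, and Defb4, a beta-defensin, at 182 FPKM. Gm94, a predicted gene with no role given in the table, was at 155 FPKM. All 5 had 0 counts in the other 5 libraries. Lypd3 and Calml3 reached 14.5 and 45.0 FPKM, with artemisinin replicate 1 next at 0.24 and 3.21 FPKM. Ly6d, a surface antigen of keratinocytes and of B cell precursors, was at 4.25, 105 and 22.0 FPKM with artemisinin, against 35.3, 10.4 and 26.6 FPKM in the model. Sfn, the 14-3-3 protein of epithelia, was at 13.3, 33.4 and 4.49 FPKM with artemisinin, against 13.4, 9.31 and 7.25 FPKM in the model. Reads of close paralogs, such as Serpinb3a and Serpinb3c, the Sprr genes, Dsg1a and Dsg1b, and Krt6a and Krt6b, may have been split or lost in the counting, so their levels are less certain.

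The members were expressed as a squamous set in artemisinin replicate 2 and in part only in the other libraries. Of the 40 members, 26 were under 1 FPKM in all of the other 5, and 9 were above 1 FPKM in all of them. Those 9 were Dmkn, Ppl, Evpl, Tgm1, Dsg2, Pkp3, Perp, Ly6d and Sfn, genes that simple and airway epithelia or lymphoid cells also use. Lung epithelial transcripts were present in every library, with Sftpc, the surfactant protein C gene, at 13665 FPKM in artemisinin replicate 2 and between 3901 and 41435 FPKM in the others.

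Squamous genes outside the 40 also stood high in artemisinin replicate 2. Of 15 other genes of cornified epidermis, 10 stood at least 10-fold above the other libraries, against 1.41% of all genes with at least 10 counts. The lists here and below were chosen with earlier results of these data known, so these counts are a description. Asprv1, a protease that cleaves filaggrin, had the highest level of the 15 there, 172 FPKM, and at 9.91-fold was just short of that measure. Lor, which encodes loricrin, was at 0.022, 114 and 0.0679 FPKM in artemisinin replicates 1, 2 and 3, against 0.0971, 0.0512 and 0.068 FPKM in the model. Flg, the filaggrin gene, was at 1.56 FPKM and Hrnr at 3.40 FPKM there, and the late cornified envelope genes Lce1a1, Lce1b and Lce1c lay between 18.6 and 22.0 FPKM. Lor, Flg, Hrnr and the Lce1 genes were named after their values were seen. Of 9 other genes of the cornified envelope 4 stood apart by that measure, led by Crct1 at 127 FPKM and Rptn (repetin) at 88.6 FPKM. Ivl, the involucrin gene, was not high there, with 1, 1 and 35 counts in artemisinin replicates 1, 2 and 3, against 398, 47 and 213 counts in the model libraries.

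Markers of the mucosa outside the 40 were divided. Of 11 measured, 3 stood at least 10-fold above the other libraries, against 1.41% of all genes. They were Pax9, a transcription factor of oesophagus and mouth, the gasdermin gene Gsdmc and the calpain subunit gene Capns2. Pax9 was at 0.158, 2.64 and 0.0578 FPKM in artemisinin replicates 1, 2 and 3, against 0, 0.0839 and 0 FPKM in the model. Rhcg, an ammonium transporter known from oesophagus, had 0 counts in artemisinin replicate 2. The transcription factor genes Klf4 and Sox2, which squamous and airway epithelia share, were within the range of the other libraries, and Tfap2c, at 0.446 FPKM, was the 1 of 11 squamous factors outside the 40 at 10-fold or more.

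Muscle moved with the squamous genes. All 10 skeletal muscle markers stood at least 10-fold above the other libraries in artemisinin replicate 2, against 1.41% of all genes. Their summed level was 5114 FPKM there and between 5.66 and 51.2 FPKM in the other 5. Acta1, the skeletal actin gene, was at 0.622, 1684 and 0.192 FPKM with artemisinin, against 0, 0.0772 and 0 FPKM in the model. Its part in the squamous values was not tested. Markers of other tissues that carry or border squamous epithelium did not stand apart in that library by the 10-fold measure, with 0 of 3 melanocyte, 0 of 6 sebaceous, 0 of 3 mammary, 0 of 4 thymic epithelial, 0 of 3 thyroid and 0 of 5 cartilage markers. The pigment gene Dct and the sebaceous gene Elovl3 had 0 counts there, and so did Csn2, Csn3 and Lalba of the mammary gland. Of 4 markers of the cornea, 3 of tongue and palate, and 2 of Langerhans and Merkel cells, 0 reached 10-fold.

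**Figure D2:**
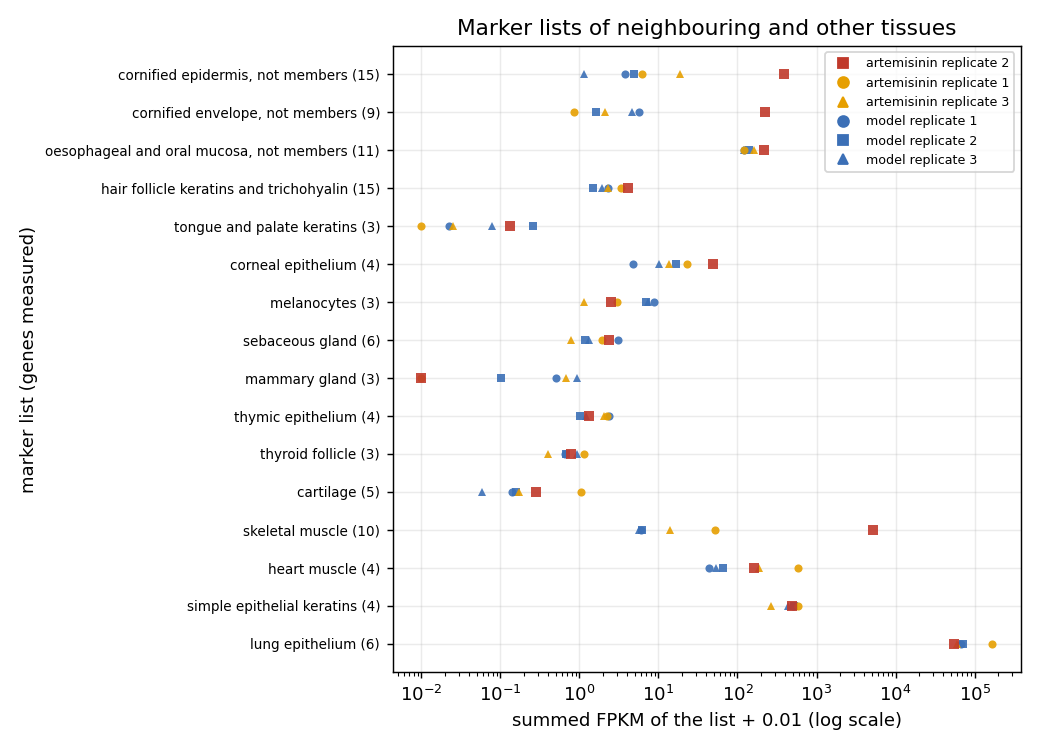
Summed deposited FPKM of each marker list in each library, on a log axis after adding 0.01, with the number of genes measured in brackets. Artemisinin replicate 2 lies far to the right for cornified epidermis, for the cornified envelope and for skeletal muscle, where its sum is 5114 FPKM, and near the other libraries for hair, melanocyte, sebaceous, thymic and thyroid lists.

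Artemisinin was then compared with the model over all 6 libraries, which asks whether the treated mice as a group differed. Only 21 of the 40 members passed the filter on low counts, because a gene near 0 in most of the other libraries does not pass it. Krt5, Krt13 and Krt14 were among those not tested. Of the 21, edgeR called 0 higher and 0 lower at an adjusted p under 0.05, where 2.17% of 15242 genes were called higher, 2.3% lower and 4.47% either way. At an unadjusted p under 0.05, 8 were higher and 1 lower, against 13.7% and 11% of all genes. DESeq2 called 3 of the 21 higher (Calml3, Krt10 and Trp63) and 0 lower, where it called 8.1% and 6.9% of all genes. Artemisinin replicate 2, whose values chose the members, is one of the artemisinin libraries here, so the choice itself favours higher values and nothing is read from these counts. For Krt4 the fitted log2 fold change was 9.43 ± 3.49 (SE; edgeR adjusted p = 0.165), with 0.0369, 1132 and 0.343 normalised CPM in artemisinin replicates 1, 2 and 3, against 0.304, 0.0617 and 1.29 in the model.

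The same comparison without artemisinin replicate 2 used 2 artemisinin and 3 model mice. The choice of members set artemisinin replicate 2 against the other 5 libraries, so the levels in those libraries are not free of the choice either. Of 21 members tested, 0 rose and 2 fell, Serpinb5 and Dmkn, where edgeR called 4.34% of 15427 genes higher and 4.62% lower. DESeq2 also called 0 higher and 2 lower, where it called 10.7% and 10.1% of all genes. Without adjustment 2 were higher and 3 lower, against 16.2% and 13.9% of all genes. The median log2 fold change of the 21 was −0.45, against 0.02 for all genes. Calls in either direction made up 8.96% of all genes, so 2 of 21 is near the background, and the result concerns these 2 genes and not the members as a set.

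Serpinb5, which encodes maspin, a serpin of basal and secretory epithelium without protease inhibition, showed the widest difference. It had 2, 1058 and 8 counts in artemisinin replicates 1, 2 and 3, against 311 to 402 counts in the model libraries. In normalised CPM it stood at 0.0739 and 0.229 in artemisinin replicates 1 and 3, against 12.2, 9.60 and 10.5 in the model (10.8 ± 1.33, SD, n = 3), while artemisinin replicate 2 was at 32.9. It fell 66.6-fold in artemisinin replicates 1 and 3 (log2 −6.06 ± 0.52, SE; edgeR adjusted p = 0.0064). The 2 libraries lay below every model library, and artemisinin replicate 2 lay above every one, so over all 6 libraries the log2 fold change was 0.06 ± 1.64 (edgeR adjusted p = 0.985).

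Dmkn had 51.4, 226 and 48.8 normalised CPM in artemisinin replicates 1, 2 and 3, against 245.3, 184.3 and 217 normalised CPM in the model. It fell 4.30-fold in artemisinin replicates 1 and 3 (log2 −2.11 ± 0.19, SE; edgeR adjusted p = 0.0064). Over all 6 libraries its log2 fold change was −0.98 ± 0.58 (edgeR adjusted p = 0.335), since artemisinin replicate 2 was inside the model range. Both promoters above hold a TGANTCA match, as do those of Krt13 and Krtdap, which were at or near 0 in the model.

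The other members tested did not pass the threshold in artemisinin replicates 1 and 3. Ppl was at 64.3 and 52.5 normalised CPM there, against 79.7 ± 3.70 in the model (SD, n = 3), with no overlap of libraries (log2 −0.45 ± 0.15, SE; edgeR adjusted p = 0.107). Perp was at 32.5 and 15.4, against 35.6 ± 2.34 normalised CPM (edgeR adjusted p = 0.257), and its libraries did not overlap either. Tgm1 and Krt78 also lay below every model library (edgeR adjusted p = 0.31 and 0.188). The share of all genes without overlap was not computed, so nothing is read from it. Of the basal genes, Krt5 and Krt14 did not pass the filter, and Krt15 and Trp63 were tested. Krt15 passed it only through artemisinin replicates 1 and 3, where it was higher, so nothing is read from its difference. Krt15 was at 1.11 and 0.601 normalised CPM in artemisinin replicates 1 and 3, against at most 0.185 in the model (log2 3.30 ± 1.10, SE; edgeR adjusted p = 0.109). Trp63 was at 1.66 and 0.458, against at most 0.347 normalised CPM (log2 1.95 ± 0.78, SE; edgeR adjusted p = 0.154).

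**Figure D3:**
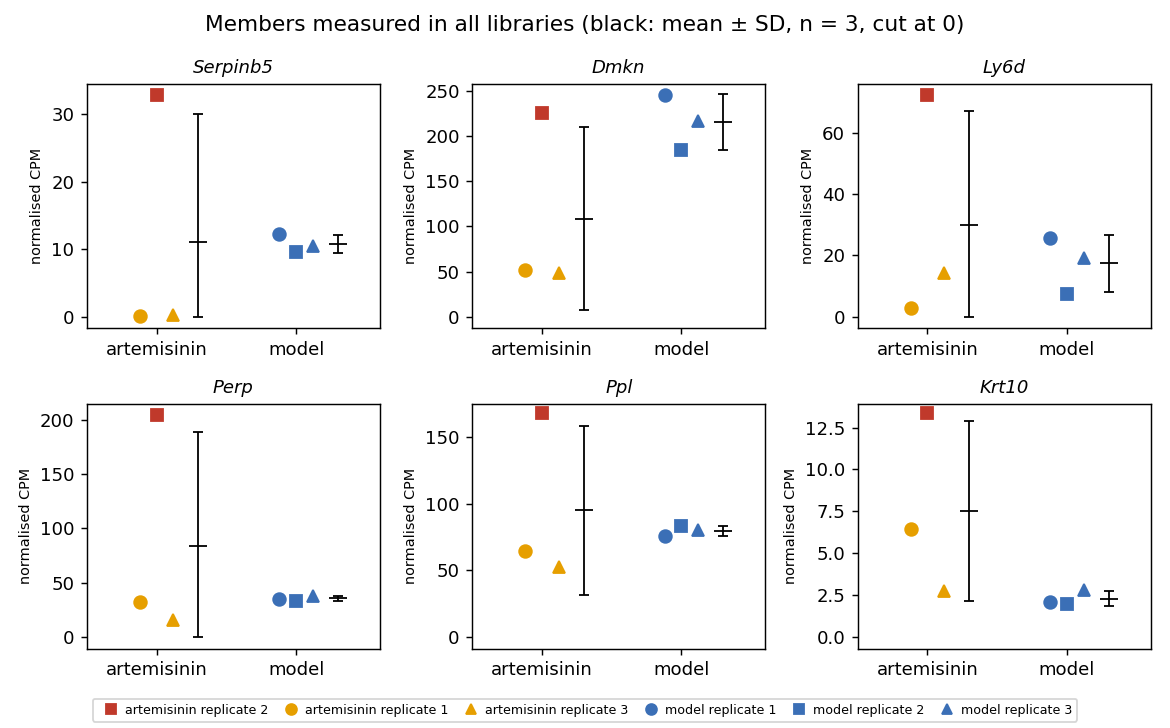
Normalised CPM of 6 members measured in every library, with artemisinin left of model, where each coloured point is 1 library and the black mark is the mean with SD over 3 libraries, cut at 0. Artemisinin replicate 2 (red) is the highest artemisinin library in all 6 panels, and artemisinin replicates 1 and 3 lie below every model library for Serpinb5, Dmkn, Ppl and Perp. Tgm1 and Krt78, not drawn, did so too, and the share of all genes that do was not computed.

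Lung epithelial markers went in both directions beside the 2 genes that fell. In artemisinin replicates 1 and 3, 2 of 6 such markers fell and 1 rose, where 4.62% of all genes were called lower and 4.34% higher. The surfactant genes Sftpb and Sftpa1 fell (log2 −2.68 ± 0.41 and −2.94 ± 0.35, SE; edgeR adjusted p = 0.0174 and 0.0105), and Foxj1, the factor of ciliated cells, rose. In artemisinin replicate 2 these surfactant genes were also below the model, with Sftpb at 1366 FPKM against 4385 to 6433 FPKM, while Serpinb5 and Dmkn were not. The summed FPKM of the 6 markers ranged from 55108 to 165891 with artemisinin and from 65247 to 71639 in the model. Scgb1a1, the secretoglobin gene, held most of it with artemisinin, so the sum does not describe the list. It was at 150990, 38827 and 54706 FPKM in artemisinin replicates 1, 2 and 3, against 14510, 37027 and 24047 FPKM in the model. Heart muscle markers also moved, with 3 of 4 called higher in artemisinin replicates 1 and 3, where 4.34% of all genes were. Their summed level was 585.8, 161.9 and 189.2 FPKM in artemisinin replicates 1, 2 and 3, against 43.6 to 64.9 FPKM in the model. Of the skeletal muscle markers, 5 were tested in artemisinin replicates 1 and 3, and 2 were called higher, against the same 4.34%. They were Ckm and Tnnt3 (log2 3.36 ± 0.68 and 3.30 ± 0.74, SE, edgeR adjusted p = 0.0353 and 0.0442). The part of any of these lists in the fall of Serpinb5 and Dmkn was not tested.

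Related genes outside the 40 showed both directions in artemisinin replicates 1 and 3, where 4.34% of all genes were called higher and 4.62% lower. Among the squamous transcription factors tested 0 rose, and those that fell included Ehf and Klf5, with log2 fold changes of −1.78 ± 0.18 and −1.33 ± 0.18 (SE; edgeR adjusted p = 0.00867 and 0.0143). Both are general epithelial regulators. Among genes of hemidesmosomes and their laminin, which anchor the basal layer, Itgb4 and Col17a1 rose by 1.22 and 2.02 on the log2 scale, and the laminin chain gene Lamb3 fell by 1.03. Dsp, the desmoplakin gene, was the 1 of 3 further desmosome genes that fell (log2 −0.78 ± 0.17, SE; edgeR adjusted p = 0.042), and artemisinin replicate 2 had the highest Dsp level of all, 19.6 FPKM. Asprv1 rose (log2 3.42 ± 0.69, SE; edgeR adjusted p = 0.034), at 4.73 and 18.2 FPKM in artemisinin replicates 1 and 3, against 0.449, 1.54 and 0.964 FPKM in the model.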

How the data were processed

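Poly(A) RNA libraries were made with a stranded TruSeq mRNA kit after mirVana extraction, per the labels' protocols, and the build was GRCm38 (mm10), per the submitters' processing notes. Aligner, counter and strand setting: not given in the sources used here. From the authors come 2 deposited tables, raw read counts per gene, and FPKM, which scales counts by length and library total. The FPKM were recomputed from the counts to a relative gap of at most 5.26e-07 over 15462 genes, so they are not independent. Levels between genes are in FPKM only.

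The tests used edgeR 4.0.16 under R 4.3.3 on counts (low-count filter by filterByExpr, TMM, robust quasi-likelihood fit, Benjamini-Hochberg over all genes, threshold 0.05), fitted to all 6 libraries and without artemisinin replicate 2. SE is the log2 fold change over the root of F. Exact permutation could not go below 0.1 for 3 against 3 or 0.2 for 2 against 3, so p-values rest on spread shared across genes. DESeq2 1.42.0 and limma 3.58.1 on log2(FPKM + 0.1), which understates low genes, were alternatives. On simulated counts edgeR recovered 29% of 2-fold and 80% of 4-fold changes over 15122 genes for all 6 libraries, and 29% and 85% over 15249 genes without artemisinin replicate 2, with 4.39% and 10.9% of calls false. Intervals are at 95% and cover counting error only.

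The members and lists were chosen with earlier results of these data known. Every member could be named. Other genes were named if keratins, if in a list of at most 12 measured genes, or by the highest FPKM of artemisinin replicate 2 in their list, with exceptions stated. Names and positions came from RefSeq GRCm38.p6, which matched 18124 genes by Entrez number and all 40 members. Some genes of the lists are not reported here.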

Additional observations from a re-analysis of the deposited data

How the results depend on the processing

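The count of members at 10-fold or more in artemisinin replicate 2 was 26, and it was 29 and 23 at 5-fold and 20-fold, 26 with library totals, 27 with FPKM, and 26 to 27 with 1 other library left out. In CPM without length scaling Krt4 and Krt13 made up 88% of the keratin members, not 89.4%. In the last 150 bases before the start TGANTCA, the TATA box and the AP-2 type core again occurred in 7, 9 and 1 members. Their shares of all genes were 4.96%, 8.89% and 11%, below those of the longer window. Over all 6 libraries 0 members were called higher and 0 lower, and DESeq2 called 3 higher. With 1 library left out, 0 were higher and 0 to 2 lower, where the 2 came without artemisinin replicate 2. Without artemisinin replicate 2, 2 members fell, and with 1 more library left out 2 to 4 fell and 0 to 1 rose. The 4 came without artemisinin replicate 1, adding Perp and Ppl, and the 1 higher, Krt10, without artemisinin replicate 3. Serpinb5 over all 6 libraries turned from 0.06 on the log2 scale to −0.0114 with all genes of at least 10 counts, −2.55 with limma on FPKM, −3.70 with the replicate block, −6.06 without artemisinin replicate 2 and −0.08 without model replicate 2, within a range of −6.06 to 0.64 over single libraries left out, and the cause was not tested. DESeq2 gave it no adjusted p. In artemisinin replicates 1 and 3 Serpinb5 ranged from −7.13 to −4.65 and Dmkn from −2.21 to −1.96 over 10 alternatives, with adjusted p from 2.43e-24 and 4.06e-23 up to 0.0436 in each, and both stayed called. Where 1 artemisinin library was left, it was assumed to vary like the model. The numbers 1 to 3 showed no sign of pairing the mice. Same-numbered libraries correlated at −0.00395, −0.103 and 0.0303 in their deviations from the group means, which cannot exclude a pairing. With the replicate block 0 members were called over all 6 libraries, and 2 fell without artemisinin replicate 2. Depth limits genes with 0 counts, where 3 counts remain possible.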
